A study of Mus musculus with 24 samples.

Results

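The genes of glycolysis, lactate handling and glycogen metabolism were examined in mouse *M. gastrocnemius* after 6 h of mild hypoxia. The module holds 43 gene names, taken from a list of enzymes, transporters and regulators of these routes, and a name entered through the non-control array probes that carry it. Probes were found for 42 of the 43 names, 66 probes in all. A probe counted as measured when its Cy5 signal averaged over 2 times its local background across the arrays, which left 55 probes and 35 genes, out of 9139 genes measured on the array in the same way.

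On each array the RNA of a single mouse's muscle was read in Cy5 against pooled RNA of the whole experiment in Cy3. The 12 Norm mice breathed 20.9% oxygen and the 12 Hypox mice breathed 12% oxygen, both for 6 h. All were male C57BL/6JOlaHsd mice that arrived at 10 weeks of age, received a diet with 10% of energy as fat for 3 weeks and then one with 40% of energy as fat for 6 weeks, were housed alone and were fasted when exposed. The controls therefore share the high-fat diet and the fasting with the exposed mice, and each value describes whole muscle of fasted, fat-fed males. In whole muscle, fewer cells of a type and less RNA per cell cannot be told apart. There were 6 slides that held 2 arrays of either group apiece, so that slide and oxygen were balanced.

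Signal strength differed more between slides than between groups. An array's mean Cy5 signal ranged between 58.3 and 933 for Norm mice and between 63.5 and 1014 for Hypox mice, while slide 1 lay between 58.3 and 102 and slide 6 between 645 and 1014. All 8 skeletal muscle markers and all 10 fast fiber markers on the lists were measured. Some markers of other cells and of fiber types differed in Hypox, where 7.17% of all genes were higher and 5.07% lower by the threshold given below. Lower were 2 of the 4 adipocyte and 3 of the 5 Schwann cell markers measured, with list medians of −0.28 and −0.17. Higher were 2 of 8 slow fiber markers, with a list median of 0.36, the endothelial *Cdh5* of 2 endothelium markers (0.38, limma P = 0.00535), and *Mylpf* of 10 fast fiber markers (0.36, limma P = 0.000905), whose list median was −0.25.

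Glycolysis splits glucose into pyruvate and yields ATP without oxygen. Lactate dehydrogenase turns pyruvate into lactate so that the route can go on, and monocarboxylate transporters carry lactate across the cell membrane. Muscle also stores glucose as glycogen. Glycogen synthase and the branching enzyme build the polymer, and phosphorylase, switched on by phosphorylase kinase, releases glucose 1-phosphate from it for use in the same fiber. Many genes of glycolysis are known targets of the hypoxia-inducible factors.

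Values are given on the log2 scale as the Cy5 signal over the Cy3 signal of the pool after loess normalization. A difference of 1 is a factor of 2. A value of 0 means equal normalized signal in both channels. It need not be the level of the pool, since *Aldoa* lay above 0 on every array of both groups. They compare 1 gene between mice and do not compare genes with each other. A gene was said to rise or fall when its limma P-value without adjustment was under 0.05, the threshold the study used, and the Benjamini-Hochberg adjusted P-value over all 9139 genes stands beside it.

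No measured member rose in Hypox, against 7.17% of all genes measured, and 2 of 35 fell (5.71%), against 5.07% of all genes. The members that fell were *Phka1* and *Gys1*, both of glycogen metabolism. The number that fell was 7 with slide as a block, beside 6.16% of all genes, and 0 with median centring, beside 0%. No member passed after adjustment, as 0.339% of all genes did. In 24 of the 35 members the Hypox mean lay below the Norm mean and in 11 above it, a split that moved to 17 and 18 with the Cy5 channel alone and to 0 and 35 with median centring in place of loess. The median log2 difference of the members was −0.034, beside 0.029 for all genes. Median centring moved the median of all genes to 0.25 and that of the members to 0.41. In the authors' deposited values, which were not put through the background filter, the medians were 0.026 over 11533 genes and 0.23 over 39 members.

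**Figure D1:**
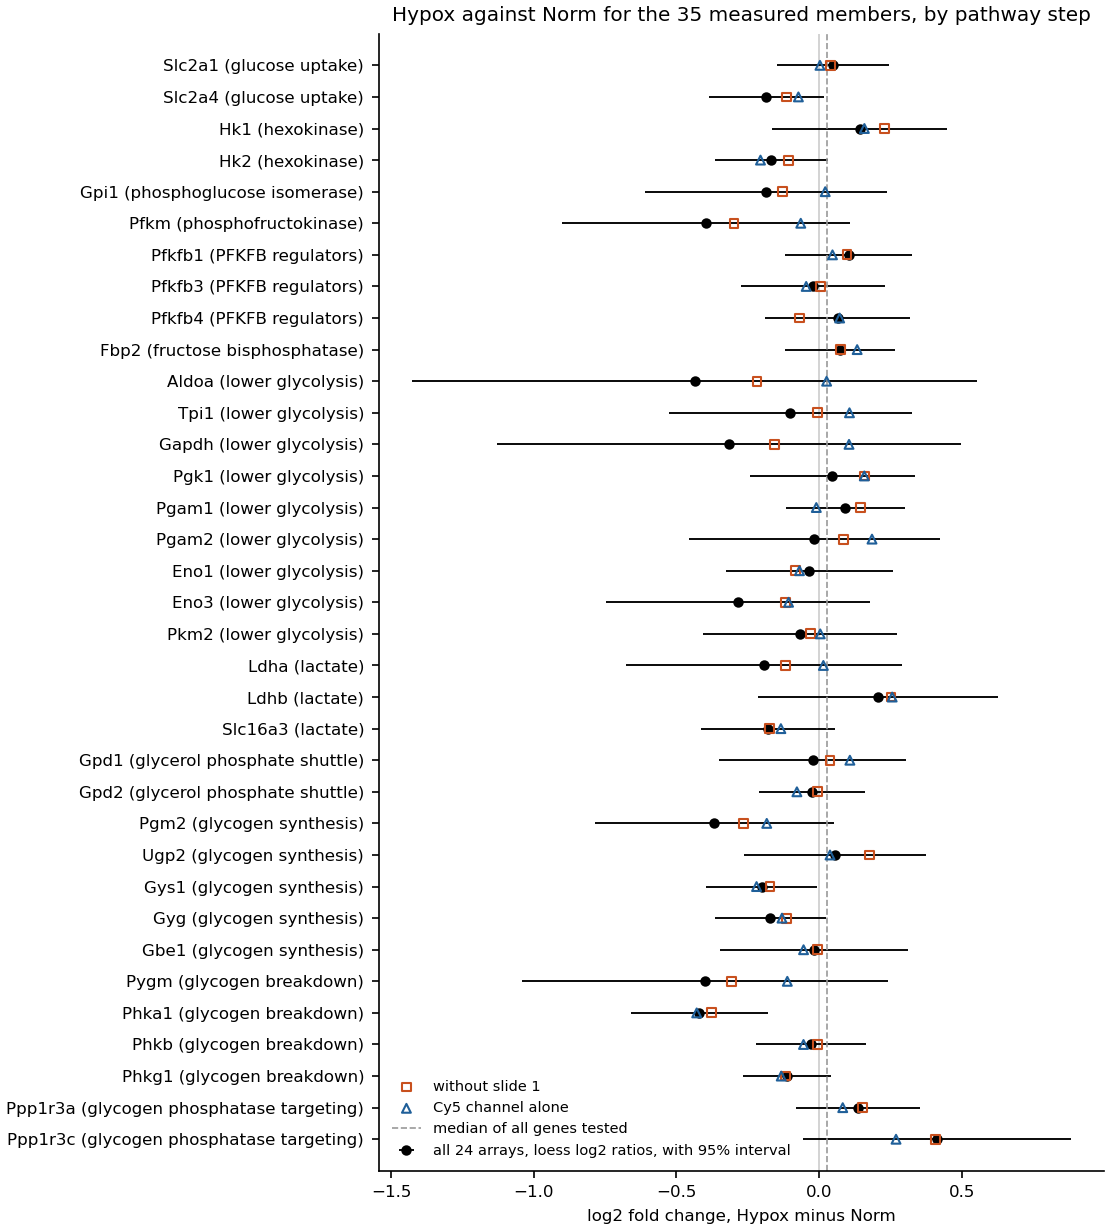
Difference between Hypox and Norm in the log2 ratio of Cy5 to the pool for the 35 measured members, ordered by pathway step. Points are the limma estimates with 95% confidence intervals (12 arrays a group), and the further symbols give the estimate without slide 1 and with the Cy5 channel alone, with a dashed line at the median of all genes (0.029). The interval lies wholly below 0 for *Phka1* and *Gys1*, lies wholly above 0 for no member, and is widest for *Aldoa*.

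A subunit gene of phosphorylase kinase, *Phka1*, showed the clearest difference of the module. *Phka1* encodes the alpha subunit of muscle phosphorylase kinase, a regulatory subunit of the enzyme that activates glycogen phosphorylase. Its probe lies at chrX:99710704-99710763 on the minus strand (mm9, as the array files give it) and begins at base 4665 of the transcript. The middle of the probe, bases 16 to 45 of 60, is shown in lower case so that a reader can place the measurement in the gene.

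*Phka1*: caatgcctactgtctctgtggtgaaatatt

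The log2 ratio of *Phka1* was −0.56 at the lowest, 0.14 at the median and 0.98 at the highest Norm array. It was −0.59, −0.24 and −0.034 at the same points in Hypox. Of the 12 Norm arrays, 10 lay above every Hypox array, no Hypox array reached the Norm median, and the 2 low Norm arrays, replicates 9 and 10, lay within the Hypox range. Norm mice averaged 0.15 ± 0.40 and Hypox mice −0.26 ± 0.16 (SD, n = 12 each), and *Phka1* fell by 0.42 on the log2 scale (SE 0.12, 95% confidence interval −0.66 to −0.18, limma P = 0.00137, adjusted P = 0.117). The difference was negative on 6 of 6 slides, from −0.83 on slide 5 to −0.10 on slide 3. With slide as a block it had P = 0.000930 and an adjusted P of 0.0756, and without slide 1, the dimmest slide, it was −0.38 (limma P = 0.00779, adjusted P = 0.194). Of 42 alternative fits, 24 of which only left out 1 array, the call was lost in 3. These were median centring, where *Phka1* stood at 0.13 while all genes had a median of 0.25, and both tests on the deposited values, where it stood at −0.057. Leaving out any 1 array kept the call. Among these fits the adjusted P was under 0.05 only without Norm replicate 10, the lowest Norm array, at 0.0321. A fit that held the mean of the slow fiber markers constant, a comparison chosen after the values were seen, gave −0.35 (limma P = 0.00719). The adipocyte and Schwann cell markers named above fell in the same mice, and their part in the difference was not tested.

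The other genes of glycogen breakdown did not pass in the fit without slide. *Pygm*, the muscle glycogen phosphorylase, ran from −0.030 over a median of 0.26 to 2.78 in Norm and from −0.59 over 0.15 to 2.21 in Hypox. Of the Hypox arrays, 5 lay below every Norm array, and 1 Norm array lay above every Hypox array. The difference was −0.40 (SE 0.31, limma P = 0.212, adjusted P = 0.624), became −0.21 without Norm replicate 4 and −0.57 without Hypox replicate 4, both of slide 1, and passed before adjustment with slide as a block (P = 0.0230, adjusted P = 0.264). *Phkb*, the beta subunit of phosphorylase kinase, differed by −0.029 and *Phkg1*, its catalytic gamma subunit in muscle, by −0.11 (limma P = 0.759 and P = 0.146). The second probe of *Phkb*, at 2.69 times background, gave −0.16 (limma P = 0.0576). The alpha and gamma subunits typical of liver, *Phka2* and *Phkg2*, which are not members, differed by −0.018 and 0.087. Whether the difference of *Phka1* exceeds that of the other subunits was not tested. *Pygb*, the brain form of phosphorylase, read 1.44 times background and was not counted as measured.

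Among the genes of glycogen synthesis, *Gys1*, the muscle glycogen synthase, was lower in Hypox through 1 of its 2 probes. The brighter probe lies at chr7:52711790-52711849 and the dimmer at chr7:52711158-52711217 (mm9, plus strand), at bases 3483 and 2851 of the transcript. Their middle 30 bases are given because the probes disagree.

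*Gys1*, brighter probe: atgtacctcgaggcctttctgcctgcaagc
*Gys1*, dimmer probe: cagccaagttcagagttaggacatttcagg

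With the brighter probe, at 49.1 times background, *Gys1* ran from −0.81 over a median of −0.21 to 0.082 in Norm. In Hypox it ran from −0.73 over −0.38 to 0.031. The ranges were nearly the same, but 1 of 12 Hypox arrays lay above the Norm median. *Gys1* fell by 0.20 on the log2 scale, from −0.23 ± 0.24 to −0.43 ± 0.22 (SD, n = 12 each; SE 0.094, 95% confidence interval −0.39 to −0.0081, limma P = 0.0417, adjusted P = 0.381), and the difference was negative on 5 of 6 slides. The dimmer probe, at 13.5 times background, differed by 0.056 (SE 0.11, limma P = 0.617). With the mean of both probes *Gys1* stood at −0.073 (limma P = 0.452), and the brighter probe passed in 14 of 24 fits made without a single array. The call also did not hold without slide 1, where the value was −0.17 (limma P = 0.110).

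The remaining genes of glycogen synthesis did not pass in the fit without slide. *Gyg*, the glycogenin that primes the polymer, differed by −0.17 (limma P = 0.0822, adjusted P = 0.472), and its second probe gave −0.18. The array's *Pgm2*, which is the gene now called *Pgm1* and turns glucose 6-phosphate into glucose 1-phosphate, differed by −0.37 (limma P = 0.0836), and it passed before adjustment with slide as a block (P = 0.00656, adjusted P = 0.162). With slide 1 left out, *Pgm2* stood at −0.26 (limma P = 0.0475, adjusted P = 0.352). *Ugp2*, which makes UDP-glucose, and *Gbe1*, the branching enzyme, differed by 0.055 and −0.018. The array's *Pgm1*, now called *Pgm2*, read 1.27 times background.

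The members that bring protein phosphatase 1 to glycogen, *Ppp1r3c* and *Ppp1r3a*, lay higher in Hypox without passing the test, while *Ppp1r3b*, a further targeting subunit that is no member, lay at −0.10 (limma P = 0.359) and was lower on 5 of 6 slides. *Ppp1r3c* encodes such a glycogen-targeting subunit, through which the phosphatase dephosphorylates synthase and phosphorylase and favours glycogen synthesis. Its probe lies at chr19:36806457-36806516 on the minus strand (mm9), at base 2380 of the transcript, and is shown because it had the largest positive difference of the module.

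*Ppp1r3c*: tttgaatgtgaactgtttttgcgtgcgcat

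*Ppp1r3c* ran from −0.98 over a median of −0.36 to 1.93 in Norm. It ran from −0.35 over 0.055 to 0.97 in Hypox. All 12 Hypox arrays lay above the Norm median, and 1 Norm array, replicate 8, lay above every Hypox array. The difference was 0.41 (SE 0.23, 95% confidence interval −0.056 to 0.88, limma P = 0.0819, adjusted P = 0.472), and it was positive on 5 of 6 slides, from −0.39 on slide 4, which holds Norm replicate 8, to 1.31 on slide 2. Without Norm replicate 8 it was 0.61 (limma P = 0.000641). It was above 0 in all 42 alternatives, from 0.27 to 0.83, and passed in 4 of them. *Ppp1r3a*, the main targeting subunit of skeletal muscle, differed by 0.14 (SE 0.11, limma P = 0.210).

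**Figure D2:**
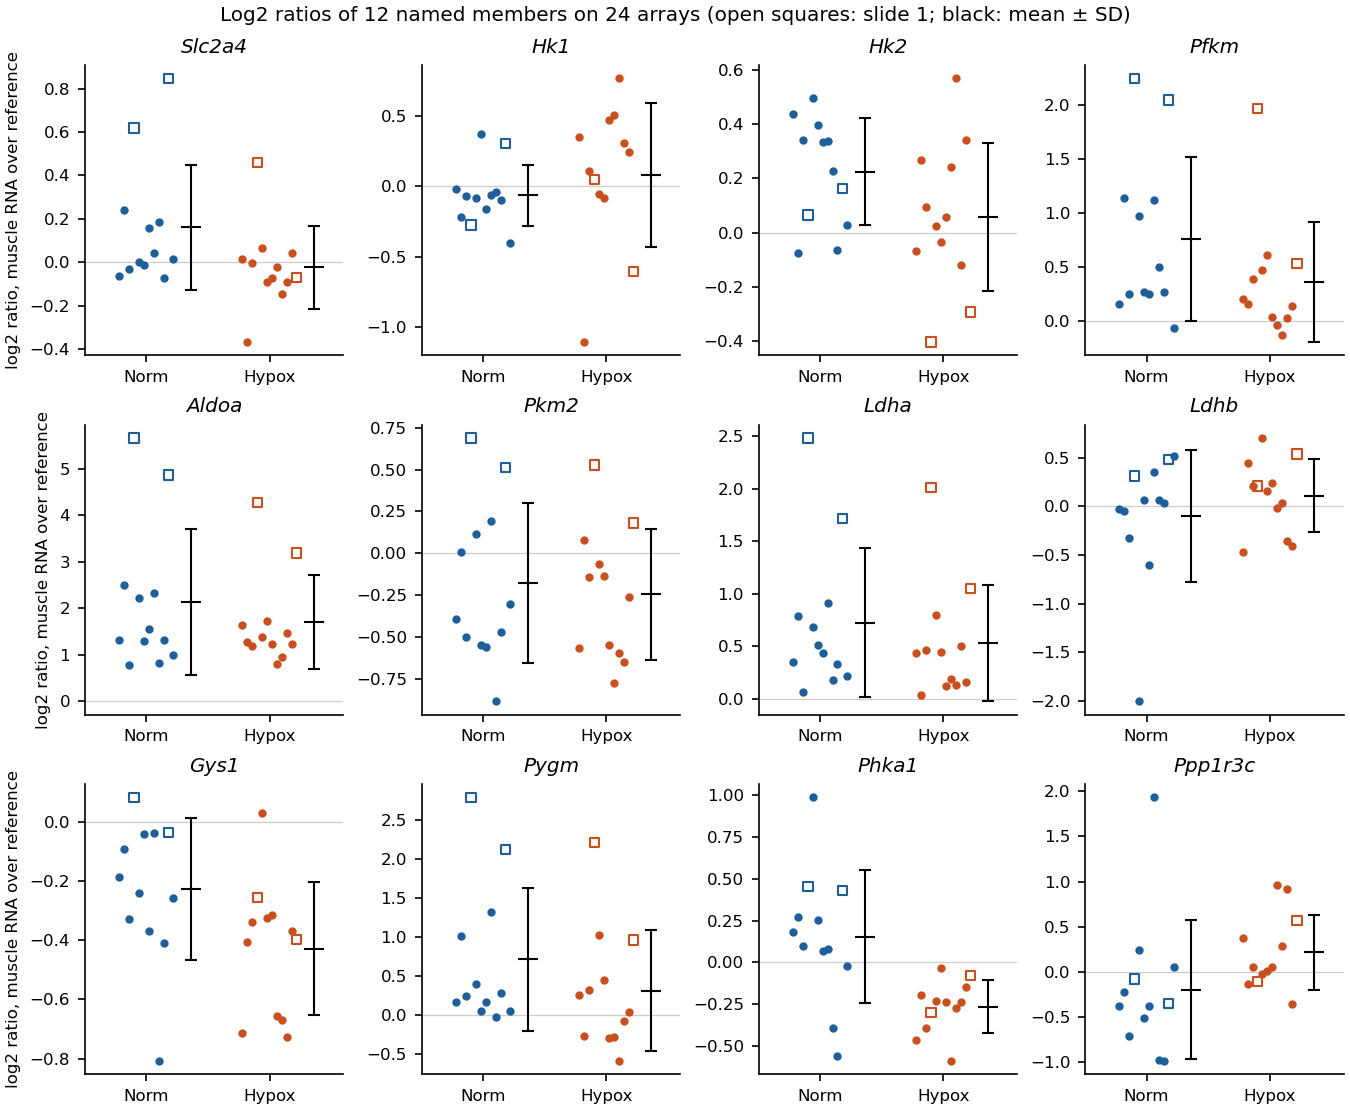
Log2 ratio of Cy5 to the pool for the 12 members described in full, 1 point per array, Norm beside Hypox. Open squares mark the arrays of slide 1, and black bars give the mean and SD of 12 arrays. For *Phka1* the Hypox points sit between −0.59 and −0.034, below 10 of the 12 Norm points, while for *Aldoa* the arrays of slide 1 stand above the rest in both groups.

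Glucose uptake and phosphorylation gave no call. *Slc2a4*, the insulin- and contraction-responsive transporter GLUT4, ran from −0.072 over 0.029 to 0.85 in Norm and from −0.37 over −0.047 to 0.46 in Hypox. Of the Hypox arrays, 6 lay below every Norm array, and 2 Norm arrays lay above every Hypox array. The difference was −0.18 (SE 0.098, limma P = 0.0717, adjusted P = 0.450), and it was negative on 6 of 6 slides. With slide as a block *Slc2a4* passed before adjustment (P = 0.0205), while median centring and the deposited values turned its sign, to 0.39 and 0.23. *Slc2a1*, the basal transporter GLUT1, differed by 0.048.

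*Hk2*, the main hexokinase of skeletal muscle, ran from −0.075 over 0.28 to 0.50 in Norm and from −0.41 over 0.041 to 0.57 in Hypox. Only 2 of 12 Hypox arrays lay above the Norm median, and the difference was −0.17 (SE 0.097, limma P = 0.0938, adjusted P = 0.492). *Hk1*, the more widely expressed hexokinase, ran from −0.41 over −0.078 to 0.37 in Norm and from −1.11 over 0.17 to 0.77 in Hypox. The Hypox arrays spread further on both sides, and the difference was 0.14 (SE 0.15, limma P = 0.348). Without Hypox replicate 2, *Hk1* stood at 0.25 (limma P = 0.0425).

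The phosphofructokinase step gave no call in the fit without slide. *Pfkm*, the muscle phosphofructokinase and a main control point of glycolysis, ran from −0.070 over 0.38 to 2.24 in Norm and from −0.13 over 0.18 to 1.96 in Hypox. The groups overlapped, the difference was −0.40 (SE 0.25, limma P = 0.117, adjusted P = 0.527), and it was negative on 5 of 6 slides. With slide as a block the same difference had P = 0.0100. With slide 1 left out, *Pfkm* stood at −0.30 (limma P = 0.0473, adjusted P = 0.352). The liver and platelet forms, *Pfkl* and *Pfkp*, read 1.30 to 1.52 times background and were not counted as measured. The PFKFB enzymes make and remove fructose 2,6-bisphosphate, the activator of phosphofructokinase. *Pfkfb1*, *Pfkfb3* and *Pfkfb4* differed by 0.10, −0.020 and 0.065, and *Pfkfb2* was at 1.34 times background. *Fbp2*, the muscle fructose bisphosphatase, which runs the step backwards, differed by 0.073. *Gpi1*, the isomerase ahead of phosphofructokinase, differed by −0.19.

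*Aldoa*, the muscle aldolase, had the largest negative difference of the module over all 24 arrays and also the largest error. It ran from 0.78 over 1.44 to 5.66 in Norm and from 0.81 over 1.33 to 4.27 in Hypox. The group medians lay close together, and the highest arrays of both groups were on slide 1. The difference was −0.44 (SE 0.48, limma P = 0.375, adjusted P = 0.737). It became −0.12 without Norm replicate 4 and −0.67 without Hypox replicate 4, both of slide 1, so that its rank rested on single arrays. With slide as a block it passed before adjustment (P = 0.0167, adjusted P = 0.232), and its sign turned with median centring (0.49), in the deposited values (0.31), in the signals processed by the scanner software (0.043) and when Cy5 was used alone (0.026).

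None of the other 8 measured genes of lower glycolysis passed. *Tpi1*, the triose phosphate isomerase, differed by −0.10, while a dimmer *Tpi1* probe, at 56.2 times background, gave 0.13 (limma P = 0.243). *Gapdh*, the glyceraldehyde 3-phosphate dehydrogenase, differed by −0.32. *Pgk1*, a phosphoglycerate kinase and a much used hypoxia target, differed by 0.046 (SE 0.14, limma P = 0.744). Its probe is placed on chromosome 3 by the array files while the gene is on chromosome X, so that the *Pgk1* reading may include a near-identical copy. The mutases *Pgam1* and *Pgam2* differed by 0.091 and −0.016, and the enolases *Eno1* and *Eno3*, the second being the muscle form, by −0.034 and −0.28. *Pkm2*, the array's name for the pyruvate kinase gene now called *Pkm*, ran from −0.89 over −0.35 to 0.69 in Norm and from −0.78 over −0.20 to 0.53 in Hypox, and its difference of −0.067 (SE 0.17, limma P = 0.691) was within the spread of either group. No probe carried the name *Pkm*, and *Aldoc*, the brain aldolase, read 1.75 times background.

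The lactate genes did not pass either. *Ldha*, the muscle subunit of lactate dehydrogenase, ran from 0.070 over 0.47 to 2.48 in Norm and from 0.037 over 0.44 to 2.01 in Hypox. The ranges nearly coincided, and the difference was −0.19 (SE 0.24, limma P = 0.419), or −0.034 without Norm replicate 4 and −0.33 without Hypox replicate 4. Its other probes gave 0.11 and 0.0084, so that the probes differed in sign and none passed. *Slc16a3*, the lactate exporter MCT4, differed by −0.18 (limma P = 0.131) and by −0.044 with its second probe, while *Slc16a1*, the transporter MCT1, read 1.54 times background. *Gpd1* and *Gpd2*, which shuttle reducing power between cytosol and mitochondria as glycerol phosphate, differed by −0.023 and −0.025.

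*Ldhb*, the heart subunit of lactate dehydrogenase, which is typical of slow, oxidative fibers, had the second largest positive difference. Its probe lies at chr6:142438770-142438829 on the minus strand (mm9), at base 1229 of the transcript.

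*Ldhb*: ttgcactaggagctcctgatcaaataaagt

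*Ldhb* ran from −2.00 over 0.047 to 0.52 in Norm and from −0.47 over 0.18 to 0.70 in Hypox. Norm replicate 5 stood alone at −2.00, and the difference of 0.21 (SE 0.20, limma P = 0.322) became 0.033 (limma P = 0.814) without it. The same mouse had the lowest mean of the 8 slow fiber markers, −2.08, while that mean lay between −0.26 and 0.16 in the Hypox mice. Across the 24 arrays *Ldhb* and that mean were correlated (Pearson r = 0.83, permutation P = 0.00024, adjusted P = 0.00084; Spearman rho = 0.64, permutation P = 0.00106, adjusted P = 0.00371; 7 relations computed with 100000 permutations each). Without the 2 arrays farthest from the median, Norm replicates 5 and 12, r was 0.49. Within groups r was 0.92 in Norm and 0.40 in Hypox, and with slide means removed it was 0.84. The relation was chosen after the values were seen, and the markers and *Ldhb* were read from the same arrays. With the slow fiber mean as a covariate the *Ldhb* difference was −0.11.

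**Figure D3:**
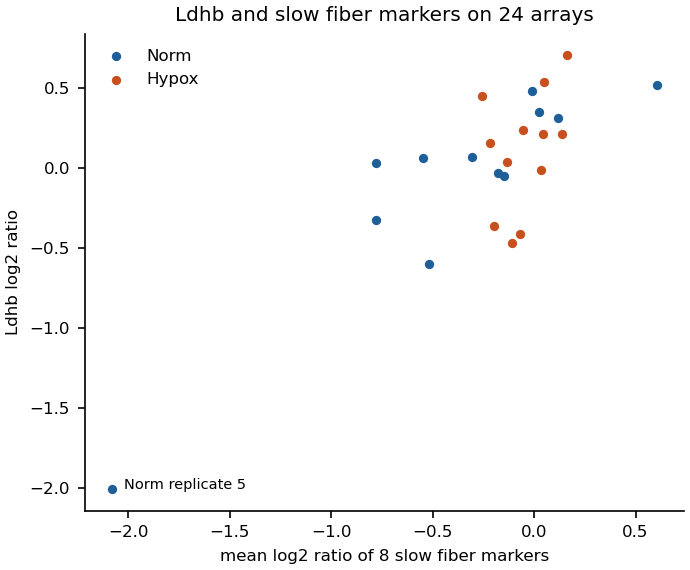
Log2 ratio of *Ldhb* against the mean log2 ratio of 8 slow fiber markers, 1 point per array, Norm and Hypox in different colours. Norm replicate 5 lies at the lower left, at −2.08 and −2.00, away from the other 23 arrays, and without it and Norm replicate 12 the Pearson r is 0.49.

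The same relation was computed for *Phka1* and *Ppp1r3c*. For *Phka1* Pearson r with the slow fiber mean was −0.43 (permutation P = 0.0414, adjusted P = 0.0966) and Spearman rho −0.14 (permutation P = 0.526, adjusted P = 0.614), and r was 0.082 without the same 2 arrays, so that the relation rested on them. For *Ppp1r3c* r was 0.24 (permutation P = 0.229, adjusted P = 0.267) and rho 0.48 (permutation P = 0.018, adjusted P = 0.042), with an r of 0.57 without the 2 arrays. Within groups its r was 0.17 in Norm and −0.048 in Hypox. Both *Ppp1r3c* and the slow fiber mean averaged higher in Hypox, so that values over all arrays include the group difference.

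The members with the brightest probes moved together from array to array. In 10 members the mean log2 intensity over both channels was at least 14, a boundary set after the values were seen: *Gpi1*, *Pfkm*, *Aldoa*, *Tpi1*, *Gapdh*, *Pgam2*, *Eno3*, *Ldha*, *Pgm2* and *Pygm*. Their log2 ratios correlated with that of *Aldoa* at r between 0.86 and 0.98 across the 24 arrays, as a description of genes read on the same arrays. The middle of the *Aldoa* probe (chr7:133938816-133938875, minus strand, mm9) is given as the gene to which the rest were compared.

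*Aldoa*: ttcaggctctttcccatcactcttgctgct

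Over all arrays the SD of these 10 members ran from 0.55 to 1.31, beside 0.18 to 0.64 in the other 25. Their means on slide 1 ran from 0.93 to 4.50, and their medians over the other slides from −0.24 to 1.31. *Aldoa* followed the brightness of the array: its log2 ratio correlated with the log2 mean Cy5 signal at r = −0.87 (permutation P = 1e-05, the smallest that 100000 permutations can give, adjusted P = 7e-05), with rho = −0.89 (permutation P = 1e-05, adjusted P = 7e-05). The r was −0.83 without the 2 arrays farthest from the median brightness, Norm replicate 4 and Hypox replicate 4, was −0.81 without slide 1 and was −0.71 with slide means removed. For *Phka1*, *Gys1* and *Ppp1r3c* the same r was −0.35, −0.34 and −0.20 (permutation P = 0.0968, 0.101 and 0.355, adjusted P = 0.141, 0.141 and 0.355; rho −0.30, −0.30 and −0.082, permutation P = 0.153, 0.159 and 0.703, adjusted P = 0.223, 0.223 and 0.703). Without Norm replicate 4 and Hypox replicate 4 these r were −0.36, −0.22 and −0.27.

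**Figure D4:**
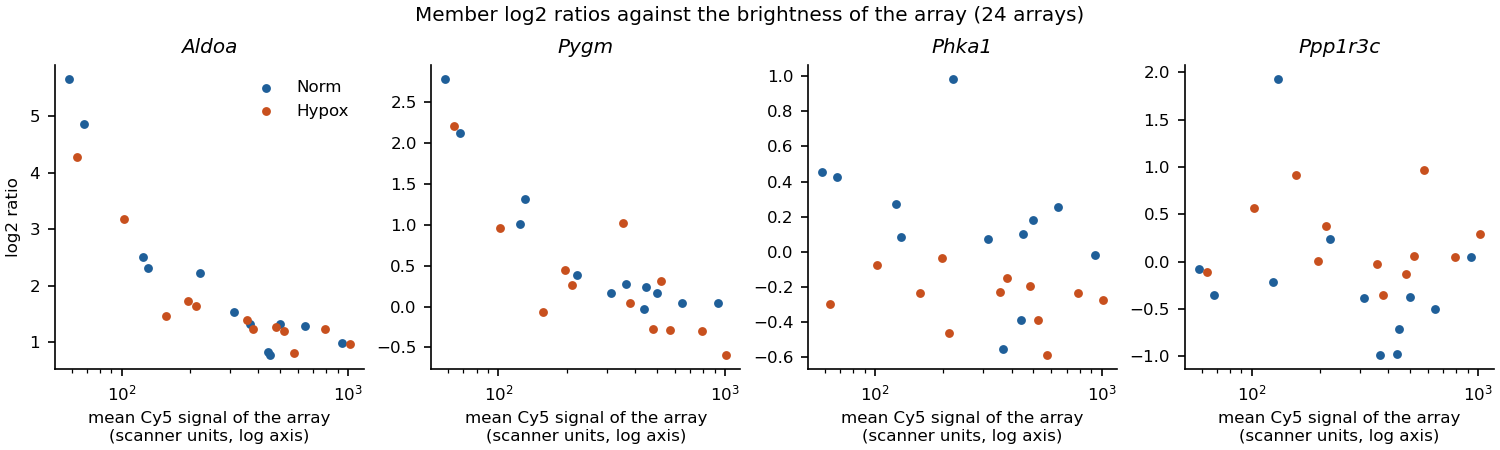
Log2 ratio to the pool of *Aldoa*, *Pygm*, *Phka1* and *Ppp1r3c* against the mean Cy5 signal of the array (log axis), 1 point per array, Norm and Hypox in different colours. *Aldoa* is highest on the 4 dim arrays of slide 1, between 58.3 and 102, and *Pygm* on 3 of them, whereas for *Phka1* and *Ppp1r3c* the Pearson r is −0.35 and −0.20.

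All 10 bright members had a Hypox mean below the Norm mean, with a median of −0.30 that turned to 0.018 with the Cy5 channel alone and 0.49 with median centring, whereas the 25 other members had a median of −0.020. Genes of the same brightness over the whole array lay on the same side. Of the 178 genes with a mean log2 intensity of at least 14, the 10 members among them, 151 were below 0. The median of the 178 was −0.24 and 17.4% fell, while the genes under 14 had a median of 0.031. Across the 35 members the log2 difference and the mean log2 intensity correlated at r = −0.63, and across all 9139 genes at r = −0.20, as a description across genes, which are not independent replicates. Without slide 1 the median of the bright members was −0.14, and 2 of the 10 fell, beside 25.8% of the 178 bright genes. Without slides 1 and 4 that median was −0.061, and 0 of the 10 fell, beside 14% of the bright genes. With array brightness as a covariate, a fit added after the values were seen, the median was −0.17, 2 of the 10 fell, and 21.9% of the 178 bright genes fell. With slide as a block, 4 of the 10 fell (*Aldoa*, *Pfkm*, *Pgm2* and *Pygm*), beside 39.9% of the 178 bright genes.

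**Figure D5:**
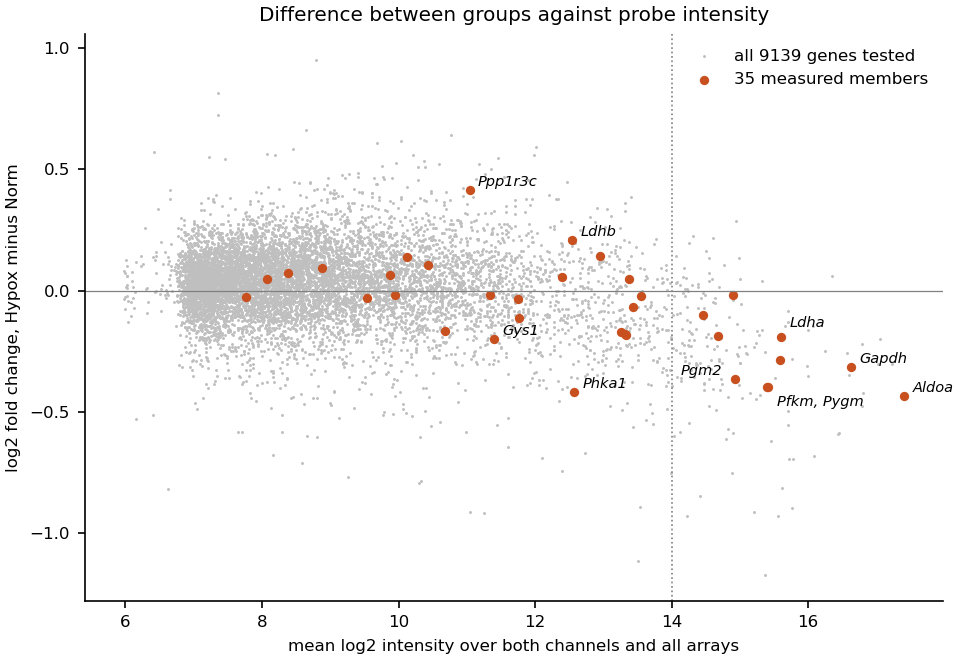
Difference between Hypox and Norm in log2 ratio against mean log2 intensity of the probe for the 9139 genes measured (grey), with the 35 members coloured and a dotted line at 14. To the right of the line all 10 members and 151 of 178 genes lie below 0, a side that turns with median centring, and to the left the members have a median of −0.020.

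*Gpi1* and *Phkg1* were read by probes that differ in 1 base, and these are shown beside their values. The probes of *Gpi1* share a stretch on chromosome 7, and they are given with the differing bases in capitals, counted from 1 at the 5′ end of the brightest probe.

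*Gpi1*, probe at chr7:34987178-34987237: ttgttCtgacctGtatttcacaccccagct
*Gpi1*, probe at chr7:34987173-34987232: ttgttTtgacctGtatttcacaccccagct
*Gpi1*, probe at chr7:34987174-34987233: ttgttCtgacctTtatttcacaccccagct

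Against the brightest probe the second carries C13T and the third G20T. Their signals were 537, 488 and 395 times background, and their differences between Hypox and Norm were −0.19, −0.23 and −0.20, within 1 SE of each other. For *Phkg1* a pair of probes on chromosome 5 (mm9, minus strand) differs by A15C.

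*Phkg1*, probe at chr5:130340040-130340099: gcccgggAagtctagtgatgcttatttcaa
*Phkg1*, probe at chr5:130340033-130340092: gcccgggCagtctagtgatgcttatttcaa

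They read 70.4 and 21.4 times background and differed between the groups by −0.11 and −0.039, both within 2 SE of 0.

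The promoters of the members were searched for the core letters bound by hypoxia-inducible factors. Windows of 250 bases before to 50 bases after each transcription start (RefSeq, GRCm38.p6) were found for 40 of the 42 genes with a probe, 59 windows in all, and both strands were read for ACGTG and GCGTG. At least 1 match stood in 43 of 59 member windows (72.9%), beside 43.8% of all 32851 windows. The member windows were also richer in G and C, with a median of 60.3% against 52.7%, and held a median of 16 CG pairs against 7. The E-box CACGTG, which contains ACGTG, was in 13.6% of member windows and 7.2% of all windows, and GTAAACA, the core of FOXO factors, in 1.7% and 3.6%. Stretches of 29 bases around a match, with the core letters in capitals, are shown for textbook hypoxia targets and for *Ppp1r3c*.

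*Ldha*, chr7:46845758-46845786, plus strand: CGTGggttcccgCACGTccgctgggctcc
*Aldoa*, chr7:126799364-126799392, minus strand: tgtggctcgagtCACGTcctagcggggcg
*Pgk1*, chrX:106186957-106186985, plus strand: aaatggaagtagCACGTctcactagtctc
*Slc2a1*, chr4:119108697-119108725, plus strand: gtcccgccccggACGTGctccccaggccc
*Pfkfb3*, chr2:11502126-11502154, minus strand: acccttctctcCACGTGaaagggggctgg
*Ppp1r3c*, chr19:36736691-36736719, minus strand: agggaccggttCACGTGatctggctttga

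None of these 6 genes passed the test in Hypox, with differences of −0.19, −0.44, 0.046, 0.048, −0.020 and 0.41. Among measured members with a window, the 26 with a match had a median of −0.031 (10 above 0) and the 7 without a median of −0.10 (1 above 0). *Phka1* had 2 matches within 25 bases before its start, and *Gys1* had none in its window. A match says only that the letters are present.

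Beyond the module, 42 further genes of the same routes were listed, of which 24 were measured. Of these, 1 rose (4.17%, beside 7.17% of all genes) and 1 fell (4.17%, beside 5.07%), and their median was −0.025. *Ppp1r3d*, another subunit that targets protein phosphatase 1 to glycogen, ran from −0.38 over −0.045 to 0.13 in Norm and from −0.11 over 0.18 to 0.38 in Hypox. Of the Hypox arrays, 8 lay above every Norm array, and *Ppp1r3d* rose by 0.23 (SE 0.075, limma P = 0.00532, adjusted P = 0.197), with a positive difference on 6 of 6 slides. *Tigar*, a phosphatase that removes fructose 2,6-bisphosphate and slows glycolysis, ran from −0.39 over 0.069 to 0.47 in Norm and from −0.49 over −0.21 to 0.33 in Hypox. The groups overlapped more, and *Tigar* fell by 0.22 (SE 0.098, limma P = 0.0323, adjusted P = 0.350), with a negative difference on 6 of 6 slides. The others ranged from *Tbc1d1*, which restrains GLUT4 vesicles, at −0.21 to *Nhlrc1*, the ubiquitin ligase malin of glycogen quality control, at 0.23 (limma P = 0.173 and P = 0.0586).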

How the data were processed

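The authors isolated total RNA from *M. gastrocnemius*, labelled each mouse's RNA with Cy5 and a pool of all samples with Cy3, and hybridized both to Agilent 60K mouse arrays. They deposited spot intensity per channel as written by Agilent Feature Extraction 10.7.3.1, without normalization between arrays. For part of the Hypox samples the dye field differs from the sample description, and the direction here follows the description (Cy5 for the mouse, Cy3 for the pool). They also deposited log2 values normalized in GeneMaths XT. Each column of these has a median of 6.58, so the columns are centred per array. A column correlates with the Cy5 level of its array at r = 0.949 to 0.997. With each probe's mean taken out, r was 0.040 to 0.835 with the Cy5 level and −0.054 to 0.923 with the log2 ratio. The scale of the deposited values and their use of Cy3 remain unknown.

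From the intensities, limma 3.58.1 in R 4.3.3 corrected background (normexp, offset 50), normalized within arrays (loess) and averaged spots of a probe. Probes were kept with a mean Cy5 signal over 2 times background and values missing on at most 4 arrays (14312 of 55681). The brightest probe stood for a gene. Groups were compared with lmFit and eBayes without a block, as in the study, on 12 Norm and 12 Hypox arrays, with Benjamini-Hochberg adjustment over 9139 genes. The number of arrays limits the precision. The scripts were tested on simulated data. Spots flagged as outliers were left out and no spot was saturated.

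The members and lists were chosen with earlier results of these data known. Members were described in full when they passed, had 1 of the 3 largest or smallest differences, had probes that disagreed in call, or were *Slc2a4*, *Hk2*, *Pfkm*, *Pkm*, *Ldha*, *Gys1* or *Pygm*. Probe positions are those of the files (mm9), and promoter windows are from RefSeq (GRCm38.p6), where *Gpd1* and *Slc2a4* had no entry. Alternatives changed the signal, normalization, channel, offset, filter, probe choice, test, block or array weights, or left out 1 array. Fits without slide 1, without slides 1 and 4, or with array brightness or the slow fiber mean as a covariate were added after seeing the data.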

Additional observations from a re-analysis of the deposited data

How the results depend on the processing

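Of the 35 measured members, 0 rose and 2 fell, beside 7.17% and 5.07% of all genes. The sets differ in some alternatives: the deposited values covered 39 members among 11533 genes, and the fit without the filter 42 among 22328. Counts of members that fell were 4 with the software's own processed signals (beside 7.39% of all genes) and 0 with median centring in place of loess (beside 0%). The count was 0 in the deposited values with limma (beside 2.1%) or the methods' t-test (beside 2.46%) and 1 with a normexp offset of 16 (beside 5.06%). With slide as a block 7 fell (*Aldoa*, *Gys1*, *Pfkm*, *Pgm2*, *Phka1*, *Pygm* and *Slc2a4*, beside 6.16% of all genes). Without slide 1 the count was 3 (*Pfkm*, *Pgm2* and *Phka1*, beside 5.27%). It was 1 without slides 1 and 4 (beside 4.79%), and 4 with array brightness as a covariate (beside 5.83%). In the deposited values with limma 1 member rose (*Ppp1r3c*, beside 2.29% of all genes), and without the filter 1 rose (*Pfkl*, beside 5.11%). With array weights 1 rose (*Hk1*, beside 11.3%), as did 1 without slides 1 and 4 (*Ppp1r3c*, beside 6.63%). After adjustment 1 member, *Phka1*, passed with array weights, as did 270 of all 9139 genes. Leaving out 1 array gave 0 to 1 member that rose, beside 6.23% to 8.76% of all genes, and 0 to 1 after adjustment. Between 1 and 7 members fell (7 without Hypox replicate 4, beside 5.57%), while 4.43% to 5.71% of all genes fell. The median of the members ran from −0.12 to −0.020.

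The replicate numbers of the labels did not pair the arrays, since same-numbered arrays correlated over 0.1 in 3 of 12 pairs. With the replicate block 1 member rose (*Ppp1r3c*, P = 0.0326) and 5 fell (*Gys1*, *Pfkm*, *Pgm2*, *Phka1* and *Slc2a4*), beside 7.62% and 5.45% of all genes, and the median of −0.034 was kept.

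The median of the members turned to 0.41 with median centring, 0.0031 with the Cy5 channel alone and 0.23 in the deposited values under both tests. Of the other 24 genes of the routes, 2 passed, but 0 with median centring and 1 to 4 when 1 array was left out. The 2 were 1 that rose and 1 that fell, beside 7.17% and 5.07% of all genes. The count that passed was 1 each with the Cy5 channel alone, the mean of a gene's probes, slow fiber mean as a covariate and without slides 1 and 4. In the deposited values under limma it was 1 of 27.

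Among the members described in full, single ones changed sign as follows, and members outside that set also changed sign. Median centring gave *Aldoa* 0.49, *Gys1* 0.24, *Hk2* 0.23, *Ldha* 0.55, *Pfkm* 0.34, *Phka1* 0.13, *Pkm2* 0.51, *Pygm* 0.35 and *Slc2a4* 0.39. The deposited values under both tests gave *Aldoa* 0.31, *Gys1* 0.045, *Hk2* 0.060, *Ldha* 0.37, *Pfkm* 0.20, *Pkm2* 0.35, *Pygm* 0.17 and *Slc2a4* 0.23. Processed signals gave *Aldoa* 0.043 and *Ldha* 0.031. The Cy5 channel alone gave *Aldoa* 0.026, *Ldha* 0.015 and *Pkm2* 0.0041. Outside that set it turned *Gapdh* to 0.10, *Gpd1* to 0.11, *Gpi1* to 0.022, *Pgam2* to 0.19, *Tpi1* to 0.11 and *Pgam1* to −0.0097. *Pkm2* was 0.086 without slides 1 and 4 and −0.14 (without Hypox replicate 4) to 0.013 (without Norm replicate 4) when 1 array was left out, and *Ldhb* was −0.11 with the slow fiber mean as a covariate. The cause was not tested for any of these. Dim arrays limit what slide 1 can show, and members under 2 times background have no reading here.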

Other observations

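*Gapdh* was read by 8 probes, whose differences ran from −0.32 for the brightest, at 2517 times background, to 0.031 for the dimmest, at 154 times background, and none passed. Near-identical copies of *Gapdh* may share these readings.

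*Pfkl*, the liver phosphofructokinase, read 1.52 times background and was not counted as measured. Norm mice averaged −0.23 ± 0.12 and Hypox mice −0.066 ± 0.24 (SD, n = 12 each), a difference of 0.17 (limma P = 0.0335) at a signal that stood well above background on 1 Norm and 3 Hypox arrays. It was singled out after its value was seen.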
